A study of Homo sapiens with 12 samples.

Results

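AZ5576, a small-molecule inhibitor of CDK9, was set directly against YKL5124, a covalent inhibitor of CDK7, in THP-1 cells, an established human acute myeloid leukaemia line of monocytic type that carries the MLL-AF9 (KMT2A-MLLT3) fusion. The comparison used 6 of the 12 libraries of the series, chosen by their labels alone: 3 from cells given AZ5576 and 3 from cells given YKL5124. Cells of both groups were treated for 2 hours and carried 1 mM 4-thiouridine (4sU) for the final 10 minutes, so both groups share the label as well as the line. Neither inhibitor's dose is stated in the labels, so a difference between the kinases and a difference in the strength of inhibition cannot be told apart. The other libraries held cells given THZ531 or DMSO vehicle. They were outside the test, and vehicle levels are quoted below only as a reference. Nothing in the labels ties replicates to separate cultures, and a p-value here is set against the variation among these libraries, part of which may be technical.

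CDK9 with a cyclin T forms P-TEFb, the kinase that releases RNA polymerase II from its pause near the promoter by phosphorylating NELF, the DSIF subunit SPT5 and the polymerase tail. P-TEFb is held inactive by HEXIM proteins on the 7SK small nuclear RNA and is brought to genes by BET proteins and the super elongation complex. CDK7 with cyclin H and MAT1 forms the CDK-activating kinase of TFIIH, which phosphorylates the polymerase tail at initiation and also activates other cyclin-dependent kinases, among them CDK9 and the cell-cycle kinases. RNAs with short half-lives are the first to decline in total RNA when synthesis is blocked.

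The deposited counts were reads of 3′ end libraries (QuantSeq, which reads near the polyadenylated end), without separation of 4sU-labelled from unlabelled molecules. They therefore hold RNA made before and after the inhibitor was added, and synthesis and decay cannot be told apart; in bulk RNA, fewer cells and less RNA per cell cannot be told apart either. With 1 row per gene, AZ5576 libraries held 5049429 to 12745389 human counts and YKL5124 libraries 7777213 to 11275892. AZ5576 replicate 2 was the shallowest and lay apart from the other AZ5576 libraries on the second principal component, while the first component (48.8% of the variance) separated the inhibitors. Drosophila S2 RNA had been added to the purified RNA at 5%, and human counts per fly count were 8.83 ± 0.745 (SD, n = 3) under AZ5576 and 8.98 ± 0.357 (SD, n = 3) under YKL5124 (exact two-sided permutation test, p = 0.8, the smallest possible being 0.1). The human side of this ratio held 1 row per gene and the fly side all rows, so it overstates the fly share. With all rows on both sides the means were 30.05 under AZ5576 and 30.26 under YKL5124 (p = 0.8, same permutation test). Since the spike was added after purification, either ratio describes RNA in the tube and not RNA per cell. All 8 monocytic markers on the list (CD33, CD68, FCER1G, TYROBP, SPI1, LYZ, ITGB2, CSF3R) passed the count filter, with a summed level of 1672 to 1891 CPM (counts scaled to library size) under AZ5576 and 1575 to 1753 CPM under YKL5124. Of 18 markers of other cell types, 2 passed, of which edgeR called 0 (0 at an unadjusted p under 0.05) and DESeq2 0, 9 were at 0 in all 6 libraries, and the summed level was 7.33 to 11.4 CPM and 9.40 to 10.9 CPM.

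Many genes differed, and the larger differences ran mostly in one direction. Of 15019 genes tested with edgeR's quasi-likelihood test, 1906 (12.7%) differed at a Benjamini-Hochberg adjusted p under 0.05. Of these, 1276 (8.5% of those tested) were lower under AZ5576 than under YKL5124 and 630 (4.19%) were higher. At least 2-fold differences were found for 403 lower genes (2.68%) and 78 higher genes (0.519%), and the median log2 difference was -0.73 over the lower calls and 0.31 over the higher calls. Throughout, a log2 difference is AZ5576 minus YKL5124, a called gene is one that passed this test, and a level is in CPM. The groups did not overlap, replicate by replicate, for 4560 genes (30.4%), and did not overlap for 1253 of the lower and 599 of the higher calls. For 7863 genes (52.35%) the 95% interval of the log2 difference lay within ±0.5. The count of higher genes depended on the scaling: TMM scaling set the median of all genes at 0.01, whereas scaling to fly counts moved it to -0.10 and left 136 higher and 1731 lower calls (7.28% higher, against 33.1% in the reported fit), and library size alone moved it to -0.09 with 203 higher and 1984 lower calls (9.28% higher). All 1276 lower calls were also called under both of these scalings. Since both move the differences downward, this outcome was close to fixed in advance and is no separate support. DESeq2 kept 820 of the 1276, rows summed per gene kept 891, and the fit without AZ5576 replicate 1 kept 777. Leaving out YKL5124 replicate 2 left 210 higher and 843 lower calls, and leaving out AZ5576 replicate 1 left 282 and 806.

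**Figure D1:**
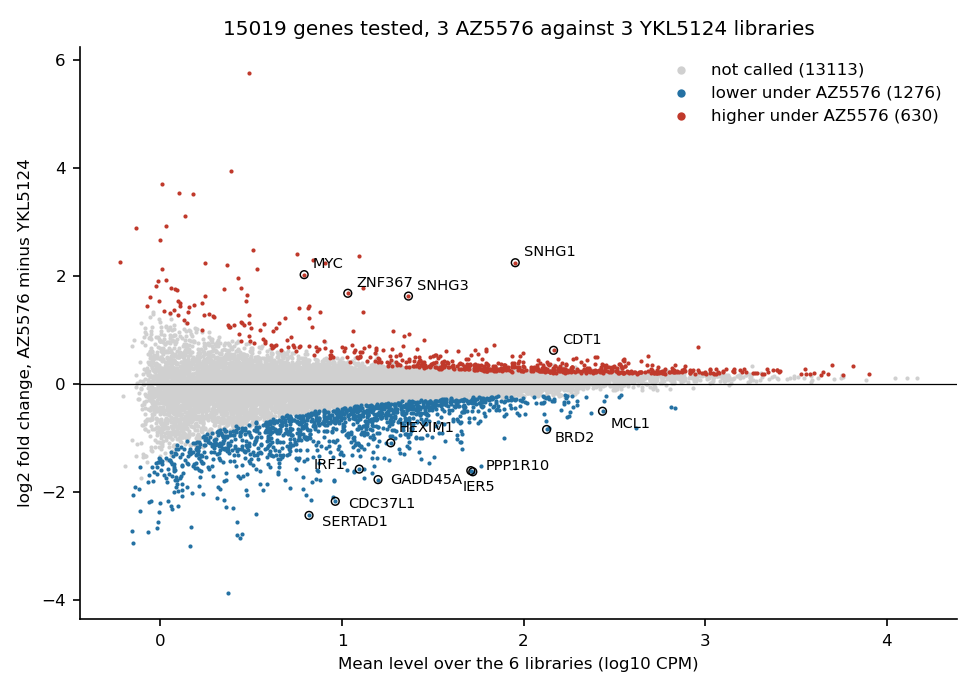
Each point is 1 of 15019 genes: the horizontal axis is the mean level over the 6 libraries in log10 CPM and the vertical axis the log2 difference, AZ5576 minus YKL5124. Blue points are the 1276 genes called lower under AZ5576, red points the 630 called higher and grey points the rest; the red points at high levels are small differences, while the blue points reach past 2-fold over low and middle levels.

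Vehicle levels placed these differences. The vehicle columns of the table are named UT and were matched to the DMSO samples as a group, because the other 9 columns match sample titles; that match rests on names alone, and no vehicle library entered a test. Of the 1276 genes lower under AZ5576, 864 had a vehicle mean above both inhibitor means, 362 between them and 50 below both; 1123 were nearer to vehicle under YKL5124. Of the 630 higher genes, 340 had a vehicle mean below both, 222 between and 68 above both, and 140 were nearer to vehicle under AZ5576. Over all 15019 genes tested, the vehicle mean was above both for 5744, between for 3360 and below both for 5915. Most lower genes were thus below vehicle with both inhibitors and further below it with AZ5576.

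On the CDK9 side, the inhibitors of P-TEFb differed and its kinase and cyclins did not pass the test. Of 7 genes of P-TEFb and the 7SK complex, 3 were lower under AZ5576 (42.9%, against 8.5% of all genes) and none higher. Their median log2 difference was -0.30 against 0.01 over all genes tested. HEXIM1, the protein that inhibits P-TEFb on 7SK RNA, stood at 12.5, 11.99 and 11.1 CPM under AZ5576 and at 23.9, 26.1 and 25.7 CPM under YKL5124, against a vehicle mean of 35.6 CPM. The groups were well apart, with a log2 difference of -1.09 ± 0.11 (SE; adjusted p = 1.17e-06); the last exon of HEXIM1 overlaps another counted gene. MEPCE, the methyltransferase that caps 7SK RNA, was at 28.6, 26.2 and 30.7 CPM under AZ5576 and at 58.6, 61.6 and 62.1 CPM under YKL5124, below a vehicle mean of 117 CPM in every library (log2 -1.08 ± 0.09). HEXIM2, the HEXIM1 paralogue, was near 1 to 3 CPM (log2 -1.05, adjusted p = 0.048), and lost its call with DESeq2, with rows summed and in 5 of the 6 fits that left out a library. CDK9 itself was at 5.89, 8.74 and 5.65 CPM under AZ5576 and 8.98, 7.58 and 7.27 CPM under YKL5124 (log2 -0.30, 95% interval -0.67 to 0.07), so the groups overlapped. CCNT1, the main cyclin T, had a log2 difference of -0.03, CCNT2 of -0.07 and LARP7, which stabilises 7SK RNA, of 0.12; none of these was called.

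On the CDK7 side, no gene of the CDK-activating kinase and core TFIIH was called among 10 tested with edgeR (1 had an unadjusted p under 0.05, and DESeq2 called 0). Their median was 0.01, a sign that turned under upper quartile, library-size and fly scaling. CDK7 was low, at 2.29, 3.66 and 2.14 CPM under AZ5576 and 3.62, 4.12 and 3.00 CPM under YKL5124 (log2 -0.51, 95% interval -1.03 to 0.02). CCNH, which encodes cyclin H, differed by -0.01 and MNAT1, which encodes MAT1, by 0.03. Among the TFIIH core genes, the log2 difference was -0.12 for ERCC3 and 0.13 for ERCC2, the helicases of the complex; it was -0.26 for GTF2H2, 0.09 for GTF2H3, 0.07 for GTF2H4, 0.04 for GTF2H5 and -0.04 for GTF2H1. GTF2H2 was called, at -0.41, when YKL5124 replicate 3 was left out.

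Genes of the elongation and initiation machinery gave calls in both directions, beside 8.5% of all genes called lower and 4.19% higher. Of 13 genes of the BET and super elongation complex list, 4 were lower and none higher (median -0.26; 2 lower without YKL5124 replicate 3). BRD2, a BET protein that reads acetylated histones, was at 90.2, 98.2 and 99.4 CPM under AZ5576 and 175, 186 and 156 CPM under YKL5124, the latter close to the vehicle mean of 184 CPM (log2 -0.84 ± 0.08, adjusted p = 3.3e-07). The other calls were EAF1 (-0.58), ELL (-0.41) and AFF4 (-0.35), the scaffold of the super elongation complex. POLR2A, the largest subunit of the polymerase and the only call among 12 subunits (list median 0.09, negative under library-size and fly scaling), was at 203, 199 and 177 CPM under AZ5576 and 290, 273 and 278 CPM under YKL5124, above the vehicle mean of 211 CPM (log2 -0.54 ± 0.07). PPP1R10, the PNUTS subunit of the phosphatase that acts on SPT5 at gene ends, was at 24.4, 25.8 and 26.9 CPM against 85.3, 71.7 and 81.1 CPM, with vehicle at 97.0 CPM (log2 -1.63 ± 0.09, adjusted p = 4.63e-10). That value belongs to 1 of the gene's rows: with the row chosen in the THZ531 libraries it was -0.83 and not called. In the same list of 16 phosphatase and termination genes, PCF11 was lower (-0.40) and the catalytic subunit PPP1CA (0.33) and PPP2R1A (0.27) were higher. Fly scaling left no higher call in this list. Leaving out 1 library left 0 to 2 higher and 1 or 2 lower, with 0 higher and 1 lower without YKL5124 replicate 2.

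Among 15 Integrator genes, whose complex ends transcription early at many promoters, 3 were lower and none higher: INTS5 at 11.4, 14.4 and 12.2 CPM against 29.3, 29.5 and 27.3 CPM (log2 -1.21 ± 0.11), INTS6 (-1.16) and INTS15 (-0.66). Of 29 Mediator genes, 4 were lower (MED18 at -0.71, MED23 at -0.62, MED10 at -0.47 and MED8 at -0.28) and MED22 was higher (0.59). These are 13.8% and 3.45% of the list, beside 8.5% and 4.19% of all genes. The list median was -0.02, and 1 gene was lower without YKL5124 replicate 3. Among 22 general transcription factor genes, 5 were lower, led by GTF2E1 (-0.57) and TAF5 (-1.07), and none was higher (median -0.08). DESeq2 called 3 of them lower; 2 were lower without AZ5576 replicate 1 or 3, and 3 without any 1 YKL5124 library. The list of 14 DSIF, NELF and PAF1 complex genes (median 0.10, negative under library-size and fly scaling) held 1 call, NELFB, higher by 0.31 and lost under fly scaling (0.19) and library size alone (0.21). Of 10 other transcriptional kinase and cyclin genes, CDK12 alone was called (-0.26). It lost its call with DESeq2 and in 5 of the 6 fits that left out a library. Lower calls were 20.0% of the Integrator list, 22.7% of the general transcription factor list and 10.0% of this kinase list. Higher calls were 7.14% of the DSIF, NELF and PAF1 list.

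Immediate-early genes encode short-lived messages and proteins that respond to signals within minutes. Of 22 tested genes of the broader immediate-early list, 11 were lower under AZ5576 and 1 was higher (median -0.43, against 0.01 over all genes). These are 50.0% and 4.55% of the list, beside 8.5% and 4.19% of all genes. SERTAD1, a transcriptional coregulator at chr19:40421592-40426025 (GRCh38), was at 1.64, 2.64 and 2.14 CPM under AZ5576, and at 11.6, 10.45 and 11.04 CPM under YKL5124. The YKL5124 libraries lay close to the vehicle mean of 12.7 CPM and the AZ5576 libraries far under it (log2 -2.44 ± 0.19, adjusted p = 4.68e-08). IER5, a regulator of heat shock factor activity, was at 26.5, 27.0 and 22.9 CPM against 82.3, 72.2 and 76.5 CPM, with vehicle at 137 CPM (log2 -1.61 ± 0.09, adjusted p = 4.99e-10). For this gene both inhibitors sat below vehicle in every library. ID2, an inhibitor of basic helix-loop-helix factors, was at 28.6, 25.8 and 32.2 CPM against 63.1, 61 and 61.6 CPM, with vehicle at 69.7 CPM (log2 -1.08 ± 0.09). BTG2, an antiproliferative factor that recruits the deadenylase, was at 1.06, 1.02 and 0.513 CPM against 4.12, 4.41 and 3.94 CPM (log2 -2.30 ± 0.30). IER5L (-1.81), the pseudokinase gene TRIB1 (-1.86), CSRNP1 (-1.55), SERTAD2 (-0.85), the kinase genes PIM3 (-0.59) and PIM2 (-0.44), and IER2 (-0.27) completed the lower calls. KLF6, a zinc finger factor, was the exception, at 28.1, 34.4 and 32.8 CPM under AZ5576 and 16.8, 21.0 and 22.1 CPM under YKL5124 (log2 0.64 ± 0.11), with vehicle at 36.3 CPM.

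Of 11 tested AP-1 genes, which encode the Jun, Fos and Maf subunits of this dimeric factor, 4 were lower and 1 higher (median -0.29), with 2 lower by DESeq2, without AZ5576 replicate 1 and without YKL5124 replicate 2. FOSL2 was at 7.78, 7.52 and 6.59 CPM under AZ5576 and 13.3, 15.2 and 14.5 CPM under YKL5124, both far below the vehicle mean of 48.0 CPM (log2 -0.99 ± 0.14). JUN was at 1.64, 1.22 and 1.97 CPM against 4.87, 3.36 and 3.68 CPM, with vehicle at 9.39 CPM (log2 -1.20 ± 0.26, adjusted p = 0.00416). FOS was at 4.01, 3.86 and 4.02 CPM against 5.99, 5.95 and 5.91 CPM (log2 -0.57 ± 0.18, adjusted p = 0.0393); its groups did not overlap, but the call was lost with DESeq2 (adjusted p = 0.173) and whichever library was left out. MAFG, a small Maf partner, was the higher call (0.51). Lower and higher calls were 36.4% and 9.09% of the AP-1 list, beside 8.5% and 4.19% of all genes. Among 7 inducible MAP kinase phosphatase genes, which encode enzymes that switch off ERK and its relatives, 2 were lower (28.6%) and none higher. These were DUSP6, at 16.2, 23.0 and 13.8 CPM against 34.4, 33.9 and 32.0 CPM (log2 -0.99 ± 0.13), and DUSP5 (-1.97).

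The sequences of 3 promoters are given as examples of signal-responsive sites at genes that did and did not differ. Promoter windows come from RefSeq (GRCh38.p14, from 250 bases before to 50 bases after the gene start). Among matched promoters of 7 AP-1 genes and 19 broader immediate-early genes, only these 3 held 1 of the sites searched. The sites were a CArG box (the site of serum response factor), a cAMP response element (TGACGTCA) and an NF-kB site. Capitals mark the site, and both strands were searched. The window of ID2 (chr2:8681806-8682105, plus strand) holds 1 NF-kB site, that of EGR1 (chr5:138465229-138465528, plus strand) 2 CArG boxes, and that of JUND (chr19:18281573-18281872, minus strand) 1 cAMP response element.
ID2: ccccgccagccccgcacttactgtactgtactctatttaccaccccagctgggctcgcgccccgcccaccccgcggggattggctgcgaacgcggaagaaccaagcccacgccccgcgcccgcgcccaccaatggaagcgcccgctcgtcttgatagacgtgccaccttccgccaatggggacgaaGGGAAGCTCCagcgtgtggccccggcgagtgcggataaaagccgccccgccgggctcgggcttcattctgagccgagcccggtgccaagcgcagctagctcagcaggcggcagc
EGR1: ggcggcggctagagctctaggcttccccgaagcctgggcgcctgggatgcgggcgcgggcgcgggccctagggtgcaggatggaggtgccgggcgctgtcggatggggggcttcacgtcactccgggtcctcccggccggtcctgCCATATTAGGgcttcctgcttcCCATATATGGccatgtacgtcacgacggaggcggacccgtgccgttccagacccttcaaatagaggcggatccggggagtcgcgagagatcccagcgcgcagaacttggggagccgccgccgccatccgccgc
JUND: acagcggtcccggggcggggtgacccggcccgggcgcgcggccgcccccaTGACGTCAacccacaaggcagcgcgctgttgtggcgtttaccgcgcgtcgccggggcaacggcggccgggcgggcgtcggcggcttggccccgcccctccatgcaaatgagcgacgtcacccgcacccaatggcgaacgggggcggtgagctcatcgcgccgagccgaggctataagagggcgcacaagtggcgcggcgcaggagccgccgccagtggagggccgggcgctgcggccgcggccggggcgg
Of these 3 genes ID2 alone was called. EGR1, a zinc finger factor induced by growth signals, was at 42.2, 49.2 and 51.5 CPM under AZ5576 and 46.2, 40.9 and 44.8 CPM under YKL5124. These overlapping levels all lay far below the vehicle libraries, whose lowest value was 187 CPM (log2 0.11, 95% interval -0.08 to 0.30). JUND, a Jun gene, was at 66.8 to 76.8 CPM under AZ5576 and 71.8 to 75.4 CPM under YKL5124 (log2 -0.03, 95% interval -0.19 to 0.13). CArG boxes were in 1.10% of 9224 matched promoters of tested protein-coding genes, cAMP response elements in 3.30% and NF-kB sites in 13.0%; the shares among the 844 genes called lower were 1.07%, 4.50% and 13.3%. A match describes the letters of this window only.

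**Figure D2:**
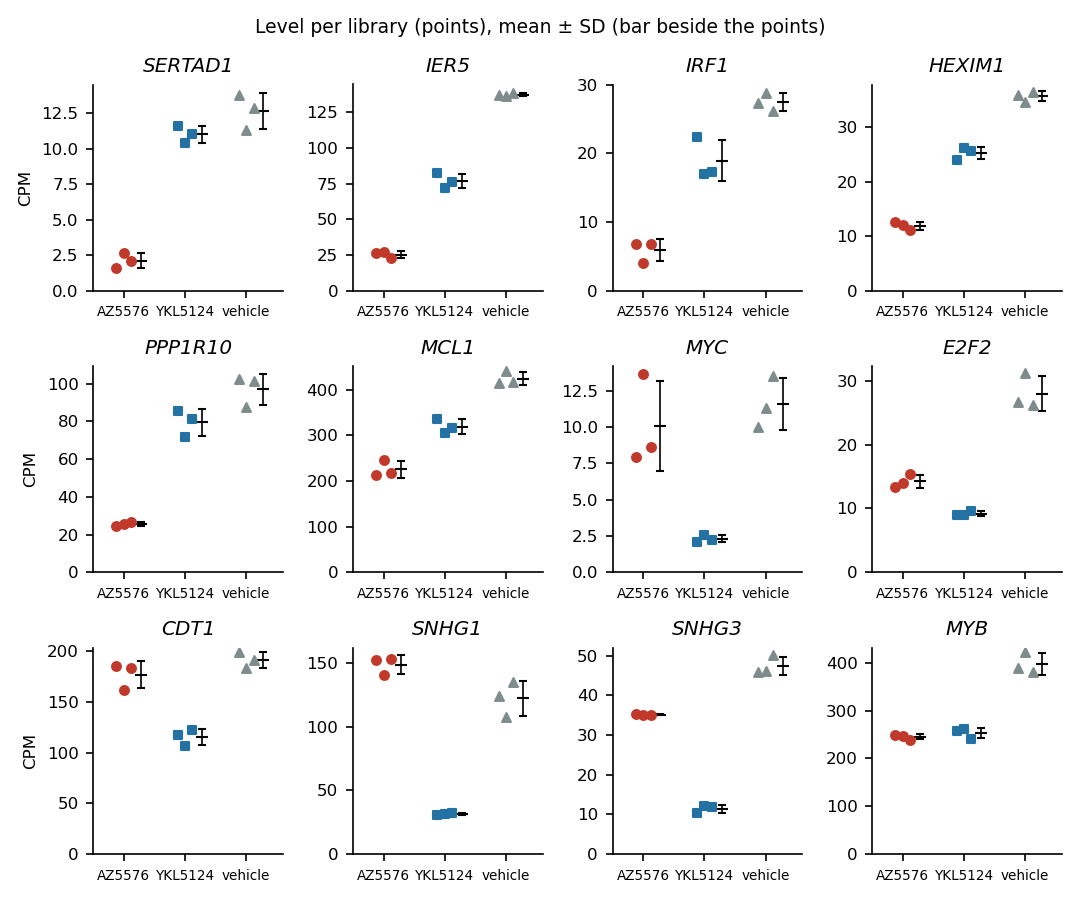
Each panel plots the level of 1 gene in CPM in every library: red circles for AZ5576, blue squares for YKL5124 and grey triangles for vehicle, 3 libraries each, with the mean and SD as a bar beside them. SERTAD1, IER5, IRF1, HEXIM1, PPP1R10 and MCL1 lie lower under AZ5576 than under YKL5124, MYC, E2F2, CDT1, SNHG1 and SNHG3 lie higher, and the inhibitor groups overlap for MYB (log2 -0.05, not called).

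Among stress-inducible genes, most of those called were lower under AZ5576, but so were 66.95% of all called genes. Lower and higher calls were 8.5% and 4.19% of all genes tested. Heat shock genes lay near these shares, with 12.5% lower and 6.25% higher. Lower calls were a larger share in the p53 list (5 of 20) and the integrated stress list (4 of 19). Of 20 p53 target genes tested, 5 were lower and 1 higher (median -0.16); THP-1 lacks functional p53, so the list is used here as a set of stress-inducible genes. GADD45A was at 6.55, 7.52 and 7.45 CPM under AZ5576 and 27.4, 24.2 and 21.6 CPM under YKL5124, with vehicle at 30.2 CPM (log2 -1.77 ± 0.13, adjusted p = 3.01e-08). GADD45B (-1.38), SESN2 (-1.11), PLK3 (-1.80) and the death gene BBC3 (-0.70) were also lower, and the exonuclease gene AEN was higher (0.37). The p53 list held no higher call under fly or library-size scaling or without AZ5576 replicate 1 or 3. Of 19 integrated stress and unfolded protein response genes, 4 were lower and none higher: DDIT4, an inhibitor of mTORC1, at 11.9, 10.4 and 10.7 CPM against 25.6, 21.1 and 24.8 CPM (log2 -1.10 ± 0.12), SESN2, which is on both lists, DDIT3 (-0.69) and PPP1R15A (-0.92). The 16 heat shock genes had a positive median (0.07, which turned negative under library-size and fly scaling): the cochaperone gene DNAJB1 (-0.52) and the factor gene HSF2 (-0.33) were lower and HSP90AB1 was higher by 0.17; this higher call was absent in every fit that left out a library other than AZ5576 replicate 2, and HSF2 lost its call in 3 of the 6 fits that left out a library.

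Of 16 tested NF-kB and inflammatory genes, 3 were lower (18.75%, against 8.5% of all genes) and none higher (median -0.23). IRF1, an interferon-responsive transcription factor, was at 6.88, 4.07 and 6.85 CPM under AZ5576 and 22.4, 17.1 and 17.4 CPM under YKL5124, with vehicle at 27.4 CPM (log2 -1.58 ± 0.16). NFKBIE (-0.91) and NFKBIA (-0.30), which encode inhibitors of NF-kB, were the other lower calls. Among 23 interferon-stimulated genes (median 0.09, negative under library-size and fly scaling) edgeR called 0 (2 at an unadjusted p under 0.05) and DESeq2 0.

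The main survival gene was lower under AZ5576, and so were death-promoting genes. MCL1, an antiapoptotic BCL2-family gene with a short-lived message at chr1:150574551-150579738, was at 212, 246 and 218 CPM under AZ5576 and 336, 305 and 316 CPM under YKL5124, both below the vehicle mean of 424 CPM (log2 -0.51 ± 0.07, adjusted p = 5.62e-05). Of 15 BCL2-family genes, the other calls were BBC3 and BCL2L11 (-0.71), which encode proapoptotic BH3-only proteins, and none was higher. Of 14 genes of death receptor signalling and IAPs, 7 were lower (50.0%) and none higher (median -0.33). Lower calls were 20.0% of the BCL2-family list and 8.5% of all genes. RIPK1, a kinase downstream of TNF receptors, was at 8.84, 12.6 and 8.64 CPM against 22.2, 22.4 and 19.3 CPM, the latter near the vehicle mean of 19.8 CPM (log2 -1.15 ± 0.14). BIRC2 (-0.44), the caspase-8 inhibitor gene CFLAR (-0.33), FADD (-0.38), CASP10 (-0.59), TNFRSF1A (-0.30) and TNFRSF10A (-0.34) were lower by less. DESeq2 called 3 lower, and leaving out 1 library left 3 to 6 (3 without YKL5124 replicate 3, and 4 without AZ5576 replicate 3, YKL5124 replicate 1 or YKL5124 replicate 2).

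MYC ran the other way. This oncogenic transcription factor, at chr8:127735434-127741434, was at 7.94, 13.6 and 8.64 CPM under AZ5576 and at 2.12, 2.59 and 2.23 CPM under YKL5124, with vehicle at 11.6 CPM. AZ5576 replicates 1 and 3 lay below the lowest vehicle library (9.98 CPM), and replicate 2 just above the highest (13.5 CPM). Every YKL5124 library lay far under vehicle (log2 2.02 ± 0.23, adjusted p = 3.36e-06). Other genes of its dimer network that were called ran lower: MYCL, a MYC paralogue, was at 15.1, 15.85 and 16 CPM under AZ5576 and 38.3, 39.3 and 35.0 CPM under YKL5124 (log2 -1.26 ± 0.10), and MXD1 (-0.83) and MLXIP (-0.29) were lower, among 11 MAX network genes tested; with DESeq2, and without AZ5576 replicate 1 or 3, 1 was lower, and 2 without any 1 YKL5124 library. Lower and higher calls were 27.3% and 9.09% of the MAX network list, beside 8.5% and 4.19% of all genes. In the list of 28 tested MLL-AF9 targets and leukaemia regulators, 8 were higher (28.6%) and 2 lower (7.14%). Its median of 0.03 turned negative under library-size and fly scaling. HOXA9, the homeobox gene kept on by the fusion, was at 49.9, 59.4 and 49.4 CPM against 35.9, 34.0 and 33.0 CPM, with vehicle at 61.3 CPM (log2 0.61 ± 0.09, adjusted p = 0.000111); its last exon overlaps another counted gene. HOXA10 (0.25), IRF8 (0.43), RUNX2 (0.42), SATB1 (0.27), ZEB2 (0.26) and CDK6 (0.23) were higher by less, and fly scaling left 2 of the 8 higher calls. Higher calls in this list numbered 3 without YKL5124 replicate 2 or 3, 4 without AZ5576 replicate 1 and 5 without AZ5576 replicate 2. LYL1 (-0.64) and CEBPE (-0.94) were lower. MYB, a regulator on which these leukaemias depend, was at 248, 248 and 239 CPM against 258, 261 and 241 CPM (log2 -0.05, 95% interval -0.18 to 0.09), both below the vehicle mean of 398 CPM. Of 15 KMT2A complex genes, WDR5 was higher (0.38, lost under fly scaling) and KMT2D lower (-0.51, lost with DESeq2). Each is 6.67% of that list, near the 4.19% and 8.5% of all genes. Of 9 azurophil granule genes, PRTN3 (0.39) and SRGN (0.22) were higher (22.2%, against 4.19% of all genes), with 0 to 3 higher when 1 library was left out. Of 19 monocyte receptor and adaptor genes, ITGB2 (0.25) was higher (5.26%). All 3 calls were lost under fly scaling.

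Of 52 tested genes of the G1/S transition and DNA replication, 19 were higher under AZ5576 (36.5%, against 4.19% of all genes) and none lower. A positive difference was found for 44, and the median was 0.23. Fly scaling kept the direction, with a median of 0.10 against -0.10 over all genes, but left 2 calls; library size alone left 6, and leaving out 1 library left 7 to 21 (7 without YKL5124 replicate 2, 9 without AZ5576 replicate 1 and 9 without AZ5576 replicate 3). CDT1, which loads the replicative helicase, was at 186, 162 and 184 CPM under AZ5576 and 117, 107 and 122 CPM under YKL5124, with vehicle at 191 CPM (log2 0.62 ± 0.08, adjusted p = 1.08e-05). E2F2, an activating E2F factor, was at 13.3, 14.02 and 15.4 CPM against 8.98, 9.02 and 9.58 CPM, both under the vehicle mean of 27.99 CPM (log2 0.63 ± 0.13). RRM1, a ribonucleotide reductase subunit, was at 568, 624 and 521 CPM against 473, 451 and 417 CPM (log2 0.35 ± 0.07). The helicase genes MCM6 (0.38), MCM2 (0.34) and MCM7 (0.29), the clamp loader gene RFC5 (0.40), the origin gene ORC1 (0.41), SLBP (0.36) and FEN1 (0.37) were also higher, whereas CDC6 (0.05) and CDC25A (0.05) were not called.

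Cell-cycle genes outside this list held isolated calls. WEE1, the kinase that restrains CDK1, was at 14.2, 14.02 and 14.5 CPM against 7.61, 8.73 and 9.33 CPM (log2 0.72 ± 0.13, adjusted p = 0.00101), and FBXO5, which encodes the inhibitor of the anaphase-promoting complex, was at 24.6, 31.3 and 30.2 CPM against 15.97, 15.4 and 14.9 CPM (log2 0.88 ± 0.11). Of 41 G2/M genes, PRC1 (0.35) and UBE2C (0.31) were higher, calls lost under fly and library-size scaling, and AURKA (-0.25) was lower, but the list held no lower call with DESeq2 or in 5 of the 6 fits that left out a library. Of 31 homologous recombination and Fanconi genes, MRE11 alone was called (0.23), and not with DESeq2 or with any library left out. Of 18 checkpoint genes, WEE1 was higher and RNF8 (-0.51) lower (5.56% each). Higher calls were 4.88% of the G2/M list and 3.23% of the recombination list, near the 4.19% of all genes. Lower calls were 2.44% of the G2/M list, beside 8.5% of all genes.

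The promoters of CDT1 and E2F2 are shown because they are those of the 2 G1/S genes with the smallest adjusted p that hold an E2F site (TTTCCCGC, TTTCGCGC, TTTGGCGC or TTTGCCGC on either strand), given in capitals; these 2 were chosen after their values were seen. The CDT1 window is chr16:88803539-88803838 on the plus strand and that of E2F2 chr1:23531184-23531483 on the minus strand, both in GRCh38.p14.
CDT1: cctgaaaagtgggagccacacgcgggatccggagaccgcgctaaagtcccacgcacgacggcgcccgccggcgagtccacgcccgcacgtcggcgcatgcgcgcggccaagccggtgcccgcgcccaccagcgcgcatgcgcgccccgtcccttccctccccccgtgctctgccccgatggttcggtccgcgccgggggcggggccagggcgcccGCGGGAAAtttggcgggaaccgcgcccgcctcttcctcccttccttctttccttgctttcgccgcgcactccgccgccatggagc
E2F2: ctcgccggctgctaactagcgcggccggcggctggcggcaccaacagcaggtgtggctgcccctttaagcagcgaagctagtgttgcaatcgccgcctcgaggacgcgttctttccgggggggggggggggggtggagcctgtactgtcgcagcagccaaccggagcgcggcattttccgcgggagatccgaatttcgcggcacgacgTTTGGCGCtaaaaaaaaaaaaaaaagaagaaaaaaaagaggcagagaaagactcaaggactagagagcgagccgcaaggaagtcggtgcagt
Such a site was in 516 of 9224 promoters of tested protein-coding genes (5.59%), in 31 of 358 called higher (8.66%), in 42 of 844 called lower (4.98%) and in 23 of 45 matched promoters of the G1/S list (51.1%). Within the G1/S list, genes with a site had a median log2 difference of 0.15 and those without of 0.26. A CCAAT box (CCAAT) was in 37.2% of all promoters, 45.5% of those called higher, 40.9% of those called lower, 46.6% of those lower by at least 2-fold and 62.2% of the G1/S list.

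Host genes of small nucleolar RNAs held the smallest adjusted p of the comparison in the higher direction under AZ5576. These genes carry box C/D or H/ACA RNAs in their introns, and their spliced transcripts mostly encode no protein and are short-lived. Of 24 tested, 13 were higher under AZ5576 (54.2%, against 4.19% of all genes) and none lower (median 0.31). With 1 library left out 10 to 14 were higher, and 5 were under fly scaling. SNHG1, at chr11:62851988-62855914, was at 152, 140 and 153 CPM under AZ5576 and at 30.8, 31.4 and 32.1 CPM under YKL5124. The AZ5576 libraries lay above the vehicle mean of 122 CPM and the YKL5124 libraries far under it (log2 2.25 ± 0.08, adjusted p = 1.52e-13). SNORD22, a small nucleolar RNA counted inside SNHG1, was at 3.93, 8.33 and 4.62 CPM against 1.37, 1.25 and 0.941 CPM, and its reads cannot be told apart from those of its host. SNHG3 was at 35.4, 35.0 and 35.2 CPM against 10.2, 11.99 and 11.7 CPM, with vehicle at 47.5 CPM (log2 1.63 ± 0.10). The last exon of SNHG3 overlaps another counted gene, RCC1. SNHG12 was at 10.1, 9.55 and 12.8 CPM against 3.74, 3.55 and 5.48 CPM, with vehicle at 30.8 CPM (log2 1.34 ± 0.19). SNHG19 (0.72), SNHG7 (0.70), SNHG10 (0.76), SNHG25 (0.45), SNHG8 (0.40), SNHG16 (0.39), SNHG32 (0.36), GAS5 (0.35), EPB41L4A-AS1 (0.29) and SNHG29 (0.20) were higher by less. Of 58 small nucleolar and Cajal body RNAs counted in their own right, 7 were higher (12.1%) and none lower.

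**Figure D3:**
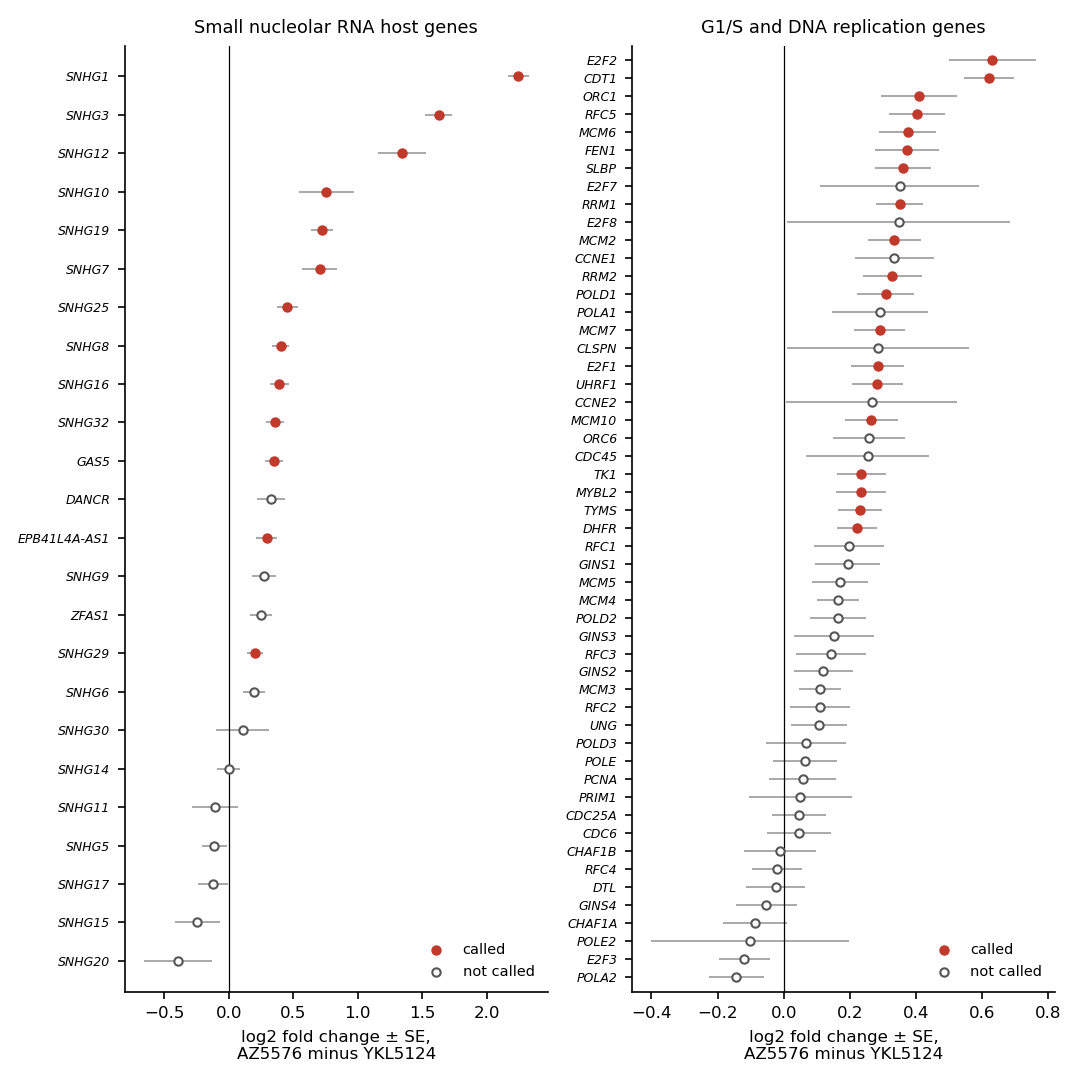
Log2 difference (AZ5576 minus YKL5124) with its standard error for every tested small nucleolar RNA host gene (left, 24 genes) and G1/S gene (right, 52 genes); filled points were called and open points were not. SNHG1, SNHG3 and SNHG12 stand apart at 1.34 or more, while the called G1/S genes lie between 0.22 and 0.63; with fly scaling 5 and 2 calls remain.

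Zinc finger genes were numerous among the lower calls. Genes with a ZNF symbol encode mostly KRAB-type repressors with short-lived messages. Of 389 tested, 138 were lower under AZ5576 (35.5%) and 5 higher (1.28%), beside 8.5% and 4.19% of all genes. Their median was -0.37, and 95 to 130 were lower when 1 library was left out. The vehicle mean lay above both inhibitor means for 289 of the 389, beside 5744 of all 15019 genes tested. On chromosome 19, where many of these genes stand in clusters, 73 of 183 were lower and 4 higher (median -0.49); elsewhere 65 of 206 were lower and 1 higher (median -0.31). ZNF773, on chromosome 19, was at 2.78, 2.85 and 3.34 CPM against 10.3, 9.49 and 12.1 CPM, with vehicle at 18.6 CPM (log2 -1.82 ± 0.18). ZNF684 was at 10.97, 14.4 and 11.7 CPM against 30.3, 32.0 and 25.7 CPM (log2 -1.28 ± 0.12), but at -0.17 and not called with the row chosen in the THZ531 libraries. ZNF367 was the largest exception, at 15.8, 19.9 and 13.8 CPM against 5.49, 4.89 and 4.71 CPM, with vehicle at 21.4 CPM (log2 1.68 ± 0.16, adjusted p = 5.65e-07), and ZNF581 was also higher (0.67). Reads of near-identical family members could be split between genes by the counting, which is not described in the sources used here.

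Other large differences fell outside the lists. Among protein-coding genes of at least 10 CPM in 1 group, CDC37L1, a relative of the HSP90 cochaperone CDC37, was at 3.85, 3.05 and 2.91 CPM against 16.1, 15.2 and 13.9 CPM, with vehicle at 16.1 CPM (log2 -2.17 ± 0.17). ITPRIP (-2.14), the T-box factor gene TBX3 (-1.78) and the arrestin-like gene ARRDC3 (-1.74) were also lower. On the higher side, PHF13, a reader of methylated histone H3, was at 13.3, 15.4 and 16.8 CPM against 8.11, 7.48 and 7.45 CPM (log2 0.98 ± 0.14), and ZBTB2 was higher by 0.68. JMJD6 was at 18.9, 16.5 and 20.8 CPM against 6.61, 7.96 and 7.87 CPM, with vehicle at 5.20 CPM (log2 1.33 ± 0.14), but its other 3′ row, chosen in the THZ531 libraries, gave -0.07. Among non-coding genes, PPP1R12A-AS1 (-1.79), GSK3B-DT (-1.59), and the lincRNA ENSG00000270019 (-2.05) were lower, as was the intronic ENSG00000277246 (-1.46). Each had a vehicle mean between the inhibitor means, with YKL5124 above vehicle. Means under AZ5576, YKL5124 and vehicle were 3.40, 11.7 and 4.70 CPM for PPP1R12A-AS1 and 3.80, 10.8 and 6.47 CPM for GSK3B-DT. They were 2.54, 10.2 and 8.98 CPM for ENSG00000270019 and 5.41, 15.0 and 5.86 CPM for ENSG00000277246. The processed pseudogene ENSG00000218713 was at 16.9, 20.9 and 24.5 CPM under AZ5576, at 3.24, 3.17 and 5.31 CPM under YKL5124 and at a vehicle mean of 0.111 CPM (log2 2.37 ± 0.19). The antisense gene ENSG00000275888 (2.29) and the lincRNA ENSG00000273437 (2.23) were also higher under AZ5576; strand use in the counting is not stated, so reads of an antisense gene and its partner cannot be told apart.

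Genes that limit the life of messages or process them gave calls both ways, beside 8.5% of all genes called lower and 4.19% higher. Of 15 decay adaptor genes, 5 were lower and 2 higher: BTG1, an antiproliferative partner of the CCR4-NOT deadenylase, was at 29.8, 24.6 and 28.1 CPM against 61.8, 66.3 and 64.9 CPM, with vehicle at 123 CPM (log2 -1.21 ± 0.09), and TOB2 (-0.71), TOB1 (-1.97), BTG2 and RC3H2 (-0.37) were lower, while ELAVL1 (0.32) and ZFP36L2 (0.27) were higher. With 1 library left out, 0 to 2 of the decay adaptor genes were higher. Of 51 genes of the deadenylation, decapping, exosome and nonsense-mediated decay machinery, 6 were lower (11.8%), among them SMG8 (-0.96). LSM4 (0.35) and DIS3 (0.38) were the 2 higher (3.92%). Both shares lay near those of all genes, and 3 were lower without YKL5124 replicate 2 or 3. Of 27 SR protein and CLK genes, 4 were lower and 2 higher. CLK4, a kinase of SR proteins, was at 5.73, 7.11 and 7.10 CPM against 21.7, 19.9 and 17.5 CPM, the latter near the vehicle mean of 18.9 CPM (log2 -1.58 ± 0.14). RSRP1 (-0.95), CLK1 (-0.65) and SRSF7 (-0.33) were lower, and SRSF3 (0.34) and LUC7L3 (0.26) higher. Of 20 cleavage and polyadenylation genes, 5 were lower, led by PAPOLG (-0.87) and CLP1 (-1.12, lost with DESeq2), and PABPN1 was higher (0.24). Lower calls in this list numbered 3 with DESeq2 and 1 to 4 with a library left out: 1 without AZ5576 replicate 1 or 3, 2 without YKL5124 replicate 1 or 3 and 3 without YKL5124 replicate 2.

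**Figure D4:**
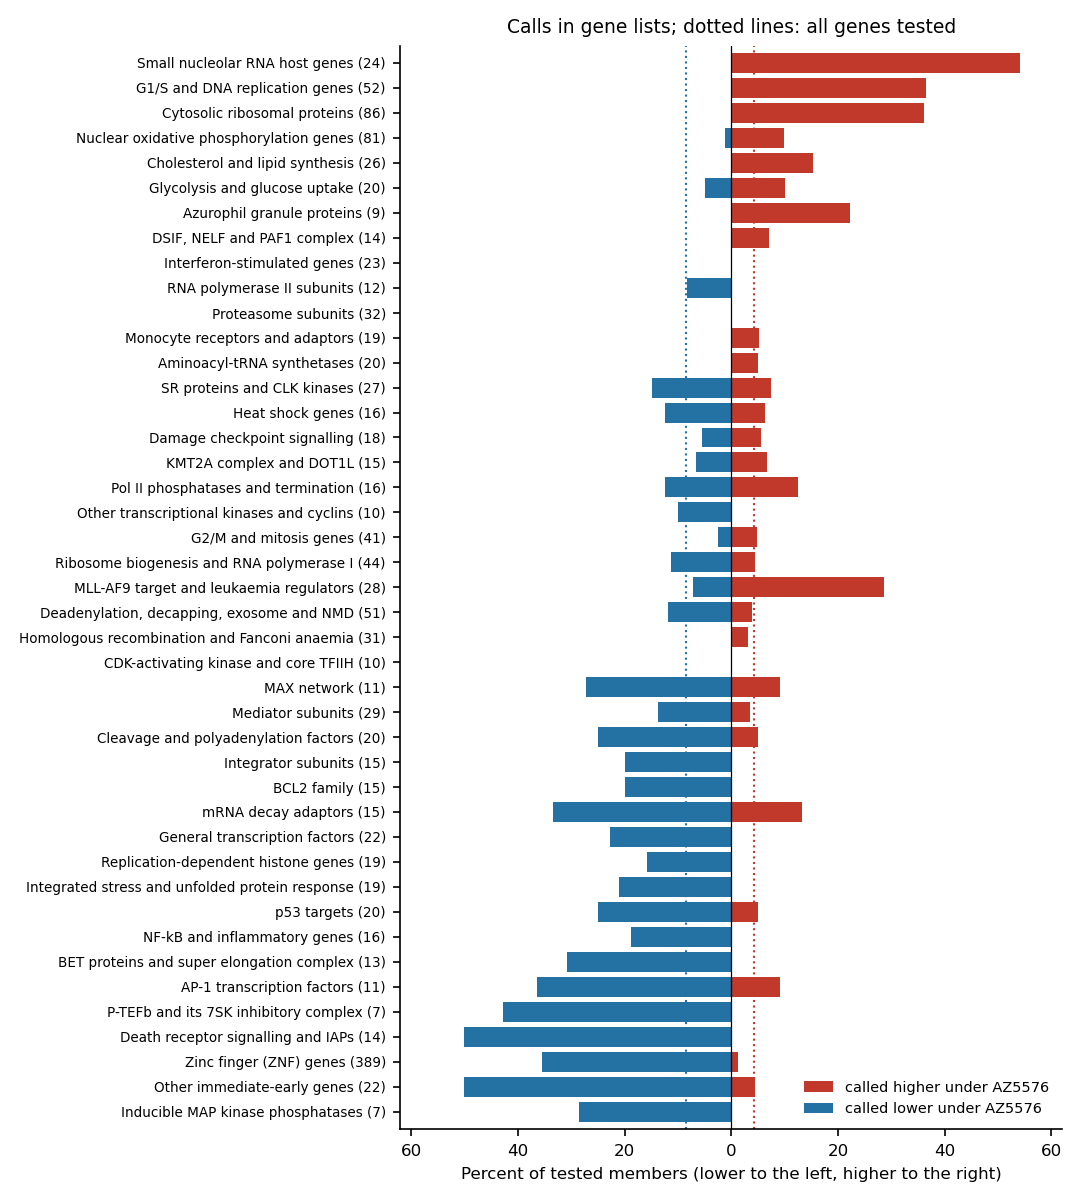
For each gene list with at least 7 tested members (number in brackets), the bars give the percent of tested members called lower (left, blue) or higher (right, red) under AZ5576, ordered by the list's median log2 difference; dotted lines mark 8.5% and 4.19% for all genes. Death receptor, broader immediate-early and P-TEFb lists reach furthest left, and small nucleolar RNA host, G1/S and ribosomal protein lists furthest right, the latter with far fewer calls under fly scaling (5, 2 and 1); medians near 0 change sign under library-size or fly scaling.

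Of 86 cytosolic ribosomal protein genes, 31 were higher (36.05%, against 4.19% of all genes) and none lower (median 0.17, with 84 positive). Fly scaling, however, left 1 call and a median of 0.05. Leaving out 1 library gave 8 to 46 calls (8 without YKL5124 replicate 2, 10 without AZ5576 replicate 1, and 18 without AZ5576 replicate 3, YKL5124 replicate 1 or YKL5124 replicate 3). The largest was RPL37, at 582, 555 and 585 CPM against 406, 385 and 414 CPM (log2 0.52 ± 0.06); RPL18 was higher by 0.27. Of 81 nuclear oxidative phosphorylation genes, 8 were higher (9.88%) and 1 lower (1.235%), with COX7A2L (0.38) and NDUFB7 (0.50) as examples. The list median was 0.14. No higher call remained under fly scaling, and 1 to 3 without any 1 library other than AZ5576 replicate 2. NDUFB7 lost its call without YKL5124 replicate 2 (0.28) and without AZ5576 replicate 1 or 3. Its call was also lost with DESeq2, with rows summed and under fly and library-size scaling. Of 26 cholesterol and lipid synthesis genes, 4 were higher: INSIG1, the sterol-responsive anchor of SREBP, at 116, 138 and 102 CPM against 82.7, 79.6 and 75.7 CPM (log2 0.57 ± 0.09), SCD (0.34), SREBF1 (0.38) and FASN (0.21); 2 were higher without AZ5576 replicate 1, YKL5124 replicate 1 or YKL5124 replicate 2, and 1 under fly scaling. Of 44 ribosome biogenesis and RNA polymerase I genes, 5 were lower (11.4%) and 2 higher (4.55%), near the 8.5% and 4.19% of all genes. POLR1C led the lower calls, at 16.7, 20.5 and 18.4 CPM against 38.5, 36.5 and 34.8 CPM (log2 -1.004 ± 0.10). TAF1D (0.93), itself a host of small nucleolar RNAs, led the higher calls. Without AZ5576 replicate 1 or 3 or YKL5124 replicate 2 or 3, 3 genes of this list were lower. Of 20 glycolysis genes LDHB (0.21) and PGAM1 (0.23) were higher and PFKFB3 (-0.36) lower; of 20 aminoacyl-tRNA synthetase genes WARS1 was higher (0.30). Among 32 proteasome genes edgeR called 0 (6 at an unadjusted p under 0.05) and DESeq2 0. Calls of LDHB and WARS1 were lost under fly scaling and when single libraries were left out. Higher calls were 15.4% of the cholesterol list, 10.0% of the glycolysis list and 5.0% of the synthetase list. PFKFB3 lost its call with DESeq2, with rows summed, and without AZ5576 replicate 1 or 3 or YKL5124 replicate 2 or 3. Of 19 replication-dependent histone genes with counts in these polyadenylated libraries, H4C15 (-1.58), H4C14 (-1.26) and H2BC21 (-1.62) were lower and none was higher. Lower calls were 15.8% of that list, beside 8.5% of all genes.

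Genes with few exons and short genes were called lower under AZ5576 in larger shares than genes with many exons and long genes; these are counts without a test. Of 383 tested protein-coding genes with 1 exon in their longest transcript, 86 (22.5%) were lower under AZ5576 and 19 (4.96%) higher. The share lower was 14.3% with 2 to 5 exons, 6.85% with 6 to 15 and 4.63% with over 15 exons (114 of 2464 genes). With a library left out, lower calls ran from 60 to 90 at 1 exon and from 56 to 130 over 15 exons (56 without AZ5576 replicate 1, 76 without AZ5576 replicate 3 and 68 without YKL5124 replicate 2). By gene length, 11.8% were lower and 6.64% higher under 10 kb, and 2.76% lower and 2.62% higher over 200 kb (724 genes; 8 lower without YKL5124 replicate 2, 9 without AZ5576 replicate 1, 11 without AZ5576 replicate 3 and 13 without YKL5124 replicate 3, beside 20). The higher calls also differed by level: over 100 CPM, 289 of 1850 genes were higher (15.6%) and 44 lower (2.38%), which became 11 higher and 53 lower under fly scaling and 59 to 357 higher with a library left out (59 without YKL5124 replicate 2, 105 without AZ5576 replicate 1, 152 without YKL5124 replicate 3 and 162 without AZ5576 replicate 3), whereas from 1 to 10 CPM 1.62% were higher and 9.54% lower. Long non-coding genes were lower in 136 of 1221 cases (11.1%) and higher in 63.

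**Figure D5:**
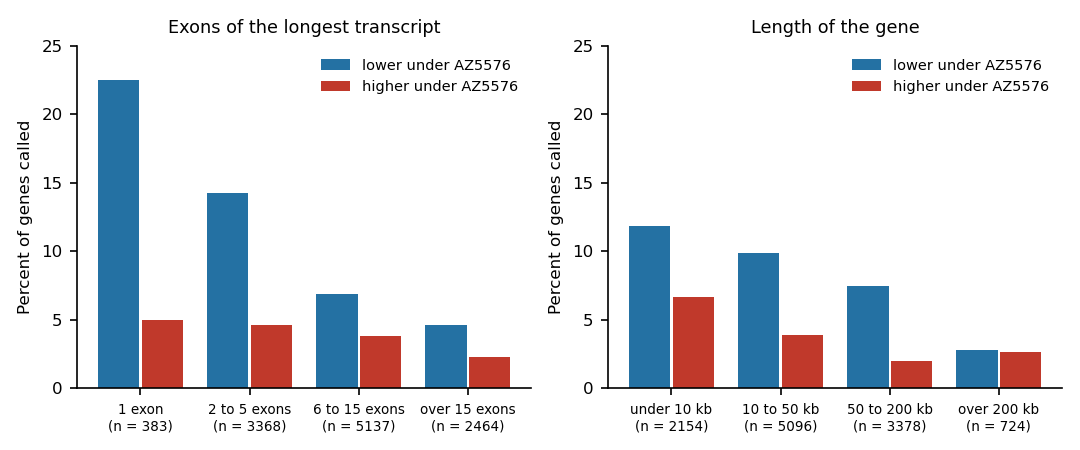
Percent of tested protein-coding genes called lower (blue) or higher (red) under AZ5576 by number of exons (left) and by gene length (right), with the number of genes under each class. The share called lower declines from 22.5% at 1 exon to 4.63% over 15 exons, and from 11.8% under 10 kb to 2.76% over 200 kb.

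Sequence features of the called genes were described without a test. The heptamer TATTTAT, the core of AU-rich elements that mark messages for rapid decay, was in the annotated 3′ untranslated region of 37.0% of 9132 protein-coding genes, 46.5% of 881 genes called lower, 38.9% of the 221 lower by at least 2-fold and 29.1% of 309 called higher. Median lengths of that region were 1608, 1959, 1531 and 1349 bases in the same order; within regions over 1500 bases the shares were 54.6% of all, 60.2% of the lower and 49.0% of the higher genes. It was in 7 of 10 AP-1 genes (70.0%) and 13 of 22 broader immediate-early genes (59.1%). A TATA box (TATAAA, either strand) was in 5.19% of promoters, 6.40% of those called lower, 11.2% of those lower by at least 2-fold and 8.38% of those called higher. The ETS site CCGGAAG, on either strand, was in 20.9% of promoters and in 43.3% of 335 matched ZNF promoters, where genes with the site had a median of -0.32 and those without of -0.42.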

How the data were processed

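The data were 3′ end RNA libraries (QuantSeq forward kit, per the labels' protocols) from THP-1 cells. The values are whole-number read counts per transcript row, deposited by the authors as 1 table with 256726 human and 38374 fly rows. Tools and builds named, with no role, per the submitters' processing notes, are edgeR 3.32.1, Trim Galore 0.6.5 and bcl2fastq 2.17.1.14, and dm6 and hg38. For the aligner, the counter, its annotation, strand use and multi-mapped reads, the sources used here give nothing.

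Human rows were mapped to genes with GENCODE release 29; 5197 rows had no gene there and held 0.677% to 0.711% of counts, and were left out. A transcript could fill several overlapping rows (17785 of 196345), so each gene was represented by the row that held most counts in these 6 libraries, and 101 genes whose counts equalled another gene's were dropped. The 37 mitochondrial rows held 0 counts. For 2094 tested genes the last exon overlapped an exon of another counted gene. Among them were HEXIM1, HOXA9, SNHG3, EAF1, PPP1CA, TAF5, MAFG, SMG8, TAF1D and GTF2H4. edgeR 4.0.16 (R 4.3.3) tested AZ5576 against YKL5124 by quasi-likelihood with TMM scaling, filterByExpr at a minimum count of 10 and Benjamini-Hochberg adjustment over all 15019 genes; the SE of a log2 difference came from that test. Vehicle levels were put on the same scale and not tested. Depth sets the precision: a gene at 1 CPM had about 5 to 13 counts a library.

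Replicates differed by more than sampling noise (chi-square per gene 2.70 to 4.66). The members and gene lists were chosen with earlier results of these data known, and lists are described by counts and medians without a test. Named genes were 12 preset genes, the 8 largest calls each way among eligible protein-coding genes and 4 each way among others, the 2 smallest adjusted p of each list, and all P-TEFb and TFIIH list members. The 8 and the 4 had at least 10 CPM in 1 group. Eligible protein-coding genes also had a symbol, replicates of the groups that did not overlap, and a last exon overlapping no other counted gene. The other genes named were chosen after their values were seen. Promoters came from RefSeq (GRCh38.p14; 9224 of the 11352 protein-coding genes matched). Some genes counted in the lists are not reported here by name. Alternatives were 19 other settings of scaling, filter, tool (DESeq2 1.42.0), row choice and libraries.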

Additional observations from a re-analysis of the deposited data

How the results depend on the processing

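Against 630 higher and 1276 lower genes in the reported fit, higher calls numbered 978 with all 12 libraries, 136 with fly scaling, 203 with library size alone, 413 with replicate number as a block, 397 with a strict count filter and 402 with rows summed per gene; lower calls numbered 820 with DESeq2 and 1984 with library size alone. Of the at least 2-fold calls, 13 higher and 260 lower were found with protein-coding genes alone, and 20 and 169 with the strict count filter, both of which test fewer genes. With a single library left out, higher calls ran from 210 to 712, lower from 806 to 1340, at least 2-fold higher from 60 to 79, at least 2-fold lower from 331 to 428, and the ratio of human counts per fly count from 0.959 to 1.03. Counts moved by more than 1.5 times without AZ5576 replicate 1 (282 higher, 806 lower), AZ5576 replicate 3 (369 higher), YKL5124 replicate 2 (210 higher, 843 lower) and YKL5124 replicate 3 (363 higher); the cause was not tested. JMJD6 reversed to -0.0724 with the row chosen in the THZ531 libraries, because another row of the gene was read. Both groups use replicate numbers 1 to 3, and the labels do not say whether same-numbered libraries were paired. Deviations from the group mean correlated at -0.128, -0.033 and 0.049 for same-numbered libraries and at -0.106 to 0.129 for the others. With 3 libraries per group these values cannot decide on pairing, and the reported fit treats the libraries as unpaired. In the fit with the replicate block, 396 of the higher and 1078 of the lower calls remained. Over named genes and settings, 2118 values kept direction and side of the threshold, 122 lost and 23 gained a call, and 6 moved. AZ5576 replicate 2, with 5049429 counts, limits the genes of low level.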
